A study of Brassica napus with 17 samples.

Results

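RNA of Brassica napus (oilseed rape) microspore cultures that had received trichostatin A (TSA) and had been kept for 8 days was compared with RNA of fresh, uncultured microspores. The members were chosen by their sample labels alone: 2 libraries of heat plus TSA at day 8 and 3 libraries of microspores at day 0, which make 5 of the 17 libraries of the series. All plants were labelled as the doubled haploid line DH12075 and carried a LEC1-GFP reporter, and all cultures were begun from late unicellular microspores. The day 0 microspores were untreated. The day 8 cultures were held at 33 °C for 24 hours with 0.05 µM TSA, were then freed of TSA, and stayed at 25 °C for 7 days. The series also holds 3 libraries each of heat alone at day 2 and day 4 and of heat plus TSA at day 2 and day 4. These enter the estimate of spread and give levels between the end points. Their TSA dose is 0.5 µM at day 2, and at day 4 the labels give 0.5 µM in one field and 0.05 µM in another.

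A microspore is the young haploid cell that normally matures into a pollen grain. In culture, heat stress can turn it away from that path, so that it divides and forms a haploid embryo, a route used in breeding to obtain doubled haploid lines. TSA blocks histone deacetylases, enzymes that remove acetyl groups from histones and whose activity is generally linked to lower transcription. LEC1 is a transcription factor of embryo development, and its reporter marks embryogenic cells.

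The protocol names callus as the product of heat with TSA, whereas the cell type label of the day 8 libraries is a mixture of microspores and embryogenic cells. The gene IDs of the count table are paired with no marker genes, so neither label could be checked against markers. The 2 groups differ in days of culture, heat and TSA at once. No culture without TSA or without heat at day 8 is among the samples, so these parts cannot be told apart. In such bulk samples, fewer cells of a type and less RNA per cell cannot be told apart either.

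Total counts were 27496445, 20851018 and 2716279 in day 0 replicates 1 to 3, and 14142177 and 21839207 in day 8 replicates 1 and 2. All 5 libraries are labelled with 1 sequencing run. Replicate 1 of either group was in lane 4, replicate 2 in lane 5 and day 0 replicate 3 in lane 6. Levels are counts per 1000000 counts (CPM), with TMM-scaled library sizes. A gene with 3 counts stood at 0.0809 CPM in the deepest of the 5 libraries and at 0.787 CPM in day 0 replicate 3, so lower levels are not resolved there. These limits cover counting error only.

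The day 0 libraries were far more alike than the day 8 libraries. Among genes at 10 CPM or more, 4 of 16917 differed by at least 2-fold between day 0 replicates 1 and 2, and 212 of 16192 between replicates 1 and 3. Between the day 8 libraries 1744 of 17172 genes did so, which is 10.2%. Per degree of freedom, the chi-square of the counts was 2.10 to 3.16 for the 3 day 0 pairs and 35.3 for the day 8 pair, where counting noise alone gives about 1. The day 0 libraries thus differed by more than counting noise. They were kept as 3 replicates as labelled, although repeat libraries of 1 sample could differ as much, and with the 3 summed to 1 library 32554 genes were called in the test below. The labels do not say whether the samples came from separate plants, so the p-values measure spread between libraries. That spread was estimated over all 17 libraries, so it is neither that of day 0 nor that of day 8 alone.

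**Figure D1:**
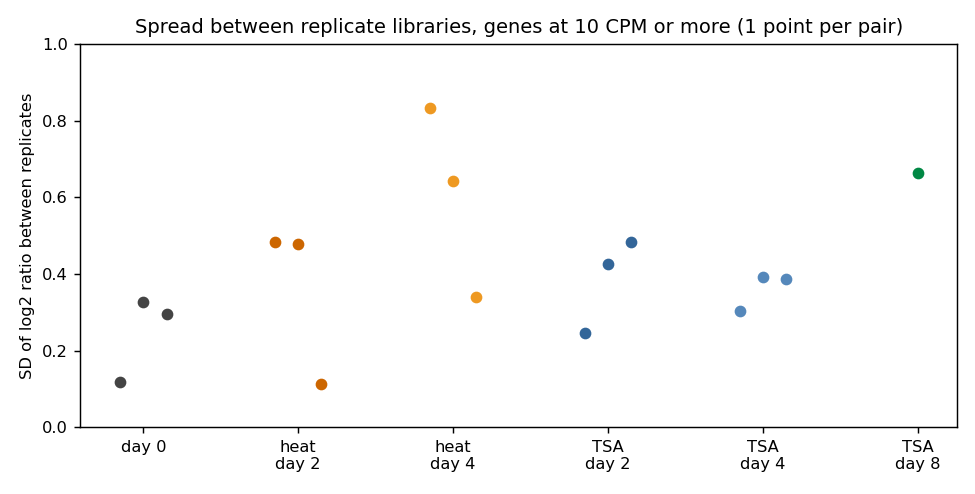
Standard deviation (SD) of the log2 ratio between 2 libraries of a group, over genes at 10 CPM or more, with 1 point per pair of libraries in each of the 6 groups. The 3 day 0 pairs lie at 0.118 to 0.328 and the day 8 pair at 0.664.

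Of the 1744 genes on which the day 8 libraries disagreed, 1015 were higher in replicate 2. In the test described below, 82.5% of the 1744 were called different from day 0, against 62.2% of all genes at 10 CPM or more. Both day 8 libraries lay on the same side of all 3 day 0 libraries for 1404 of the 1744. Over all genes tested this held for 33.4% upward and 32.6% downward. That base includes genes under 10 CPM, so it is not a like comparison. The mean of the TSA day 4 cultures lay nearer to replicate 2 than to replicate 1 for 1092 of the 1744 (62.6%), and the day 0 mean for 855 (49%). Across 64330 genes, which are not independent replicates, replicate 1 correlated at 0.711 to 0.729 with the TSA day 4 libraries and replicate 2 at 0.758 to 0.769. With day 0 the values were 0.644 to 0.653 and 0.663 to 0.666, and with heat-only day 4 they were 0.366 to 0.427 and 0.431 to 0.481. By this measure replicate 2 was nearer than replicate 1 to all 5 other groups. Replicate 1 also had fewer counts, 14142177 against 21839207, and the part of depth in this difference was not tested.

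The comparison asks which genes differ between the start of culture and TSA-treated cultures after 8 days. Of 64330 genes tested, 37396 were called, which is 58.1% (edgeR quasi-likelihood test, Benjamini-Hochberg adjusted p under 0.05). With limma voom and a weight per group 30807 of the 64330 were called, so a majority was not called under every setting. The 37396 were split evenly, with 18630 higher (29% of genes tested) and 18766 lower (29.2%) at day 8. A change of at least 1 log2 unit, a doubling or halving, was found for 30353 of the called genes (47.2% of genes tested). Tested against a change of 1 log2 unit rather than against no change, 12970 genes were higher and 11151 lower. Both day 8 libraries lay above all 3 day 0 libraries for 17998 of the genes called higher, and below them for 17419 of those called lower. Over all genes tested, called or not, the upper share was 33.4% and the lower 32.6%.

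Small and very large changes were both common. Among called genes, 2903 rose and 4140 fell by less than 1 log2 unit, 3844 rose and 4701 fell by 1 to 2 units, and 4973 rose and 3821 fell by 2 to 4. The fitted change was 4 to 6 units for 3558 rising and 2411 falling genes, and 6 units or more for 3352 and 3693. Of all called genes, 1789 of the rising had no count in any day 0 library and 3229 of the falling had none in either day 8 library, so their fitted size is not a measurement. Within each sequencing lane, 37044 called genes (99.1%) moved in the fitted direction in both lane 4 and lane 5, against 82.5% of all tested genes. The lane pairs share no library with each other. Their libraries also entered the fit that gave the calls and directions, so high agreement among called genes was set by the choice and is no independent check.

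**Figure D2:**
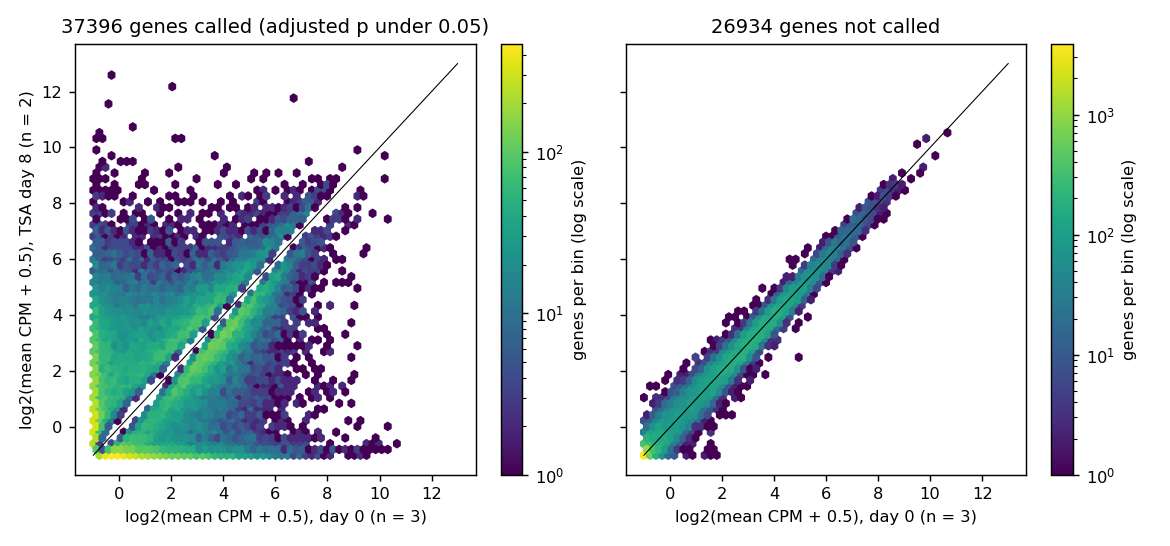
Mean level at TSA day 8 (vertical, n = 2) against day 0 (horizontal, n = 3), both as log2(mean CPM + 0.5), for the 37396 called genes on the left and the other tested genes on the right. Shading gives genes per bin on a log scale and the line marks equal levels. Called genes fill the plane on both sides of the line, including genes near 0 on one axis and above 100 CPM on the other.

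A set of genes stayed near their level by intervals taken gene by gene, without adjustment over the genes tested. For 12568 genes (19.5%) with at least 10 counts in the 5 libraries, the 95% interval of the log2 fold change lay within 1 unit on both sides, and 1503 of these were also called. For 15869 genes the test gave neither a call nor such an interval, so for these the size of any change remains unresolved. Strongly expressed genes included many of the steady kind: 558 genes were at 100 CPM or more in both groups, and 400 of them had an interval within 1 unit. Of these 558, 132 were called higher and 63 lower at day 8 and 363 were not called, where 58.1% of all genes tested were called. The choice itself lowers this share, since genes that moved far cannot be at 100 CPM or more in both groups. It therefore does not show that strongly expressed genes were steadier than others. The summed share of the 558 genes was 16.0% ± 0.832 of all counts on day 0 (SD, n = 3). In the day 8 cultures it was 15.7% ± 0.12 (SD, n = 2).

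Among the 64330 genes tested, many changed level class between day 0 and day 8. Of 1006 genes at 100 CPM or more on day 0, 558 (55.5%) remained there at day 8, 264 were at 10 to 100 CPM, and 58 were under 0.1 CPM. Of 15470 genes at 10 to 100 CPM, 66.5% kept that level class, and 642 were under 0.1 CPM at day 8. Of 11789 genes under 0.1 CPM on day 0, 5634 (47.8%) were still under it, 596 had reached 10 to 100 CPM and 39 had reached 100 CPM or more. Genes low in every group were mostly removed by the filter on low counts before the test. The 47.8% is therefore lowered by that choice and is not a share of all low genes. Seen from day 8, 48.3% of the 1156 genes at 100 CPM or more had been in that class on day 0.

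**Figure D3:**
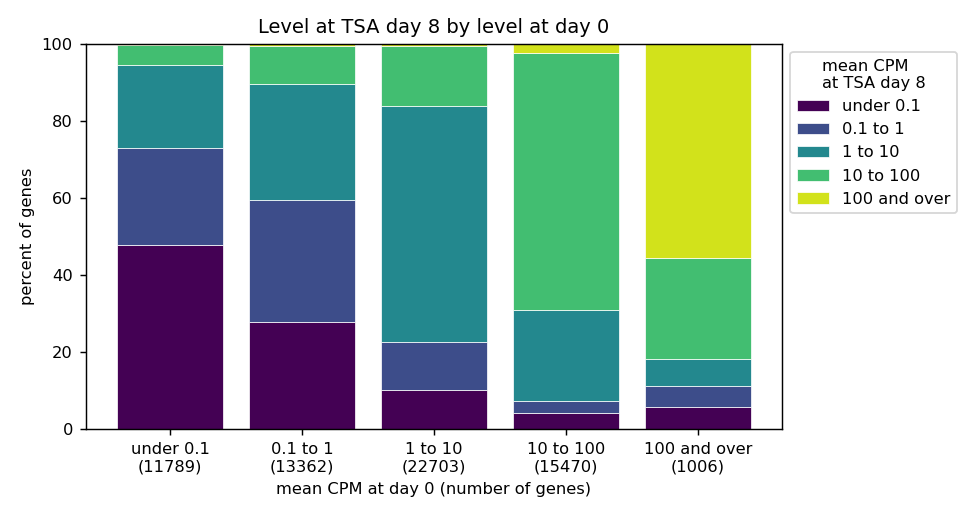
Share of tested genes in each level class at TSA day 8 (colours, mean CPM), grouped by their mean CPM at day 0 (bars, number of genes in brackets). The class of 100 CPM and over kept 55.5% of its 1006 genes and the class under 0.1 CPM kept 47.8% of its 11789. The filter on low counts, which mostly removed genes low in every group, lowers the second share.

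Genes are named by ID, since the files give no gene names for them. By rule, they had the largest fold changes, 2 in each direction, among called genes without overlap between the groups. A mean of 10 CPM where the gene was high and a sum of 10 counts where it was low were required. Copies of a gene on the A and C subgenomes of B. napus can be near-identical, and how shared reads were assigned is not given in the sources used here, so levels of single copies are uncertain.

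BnaC04g45790D, on chromosome C04, went from near silence to the most abundant transcript at day 8. It stood at 0.216, 0.467 and 0.262 CPM in the day 0 libraries, from 8, 13 and 1 counts. At day 8 it stood at 5559 and 7099 CPM, or 0.74% and 0.852% of all counts. The groups lie far apart, and the log2 fold change was 14.22 ± 0.93 (SE; adjusted p = 2.03e-09, edgeR quasi-likelihood test). Cultures of the days between were intermediate: means were 265 ± 34.7 CPM with TSA at day 2 and 401 ± 85.9 CPM with TSA at day 4, and 23.2 ± 13.1 and 119 ± 86 CPM with heat alone (SD, n = 3 each). The gene was thus above its day 0 range in all 12 libraries of the 4 other culture groups.

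BnaA03g09530D, on A03, ranked 4 in abundance at day 8 and was low in the TSA cultures of days 2 and 4. Its day 0 levels were 0.108, 0.18 and 0.524 CPM, from 4, 5 and 2 counts, and its day 8 levels 2139 and 3665 CPM. The log2 fold change was 14.03 ± 1.24 (SE; adjusted p = 1.24e-07, edgeR quasi-likelihood test). With TSA it was at 0.824, 1.60 and 0.34 CPM at day 2 and at 5.06, 6.88 and 18.5 CPM at day 4. The day 2 values overlap those of day 0, and those of day 4 do not. With heat alone it was at 2.18 ± 1.44 CPM at day 2 and 37.4 ± 28.6 CPM at day 4 (SD, n = 3 each).

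BnaCnng71440D, placed on the C subgenome without a chromosome, fell from rank 14 on day 0 to a trace. It stood at 786, 826 and 1090 CPM on day 0 and at 0.266 and 0.305 CPM at day 8, from 5 and 8 counts. The log2 fold change was -11.58 ± 0.82 (SE; adjusted p = 7.41e-09, edgeR quasi-likelihood test). In the other cultures it was already below all its day 0 values. It was at 12.7 ± 10.1 and 1.15 ± 0.682 CPM with TSA at days 2 and 4, and at 121 ± 6.21 and 14.9 ± 4.12 CPM with heat alone (SD, n = 3 each).

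BnaA10g14780D, on A10, ranked 3 in abundance in fresh microspores, at 1248, 1358 and 1424 CPM. At day 8 it stood at 0.638 and 0.382 CPM, from 12 and 10 counts. The log2 fold change was -11.38 ± 0.62 (SE; adjusted p = 2.64e-10, edgeR quasi-likelihood test). This gene was at 2425 ± 161 CPM with heat alone at day 2, above all its day 0 values, and at 22.1 ± 6.03 CPM with TSA on the same day (SD, n = 3 each). At day 4 it was at 236 ± 88.5 CPM with heat alone and at 7.28 ± 2.35 CPM with TSA (SD, n = 3 each), below all day 0 values in both.

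KCP1 (BnaA02g32290D) and TR1 (BnaCnng15100D) are the only IDs to which the reference table gives another name. KCP1 encodes a protein with a kinase-inducible domain that was described in B. napus as a partner of the histone deacetylase HDA19. KCP1 stood at 2.10, 1.58 and 1.05 CPM on day 0 and at 4.94 and 6.14 CPM at day 8, without overlap, although the third day 0 value rests on 4 counts. Its log2 fold change was 1.70 ± 0.30 (SE, 95% interval 1.05 to 2.34; adjusted p = 0.000147, edgeR quasi-likelihood test). TR1 did not pass the test. It stood at 7.88, 8.58 and 5.24 CPM on day 0 and at 5.90 and 8.82 CPM at day 8, with a log2 fold change of -0.03 ± 0.25 (SE, 95% interval -0.56 to 0.51; adjusted p = 0.955, edgeR quasi-likelihood test). Its groups overlap, and the sign of the small difference turned under other scalings, such as 0.11 with RLE size factors.

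**Figure D4:**
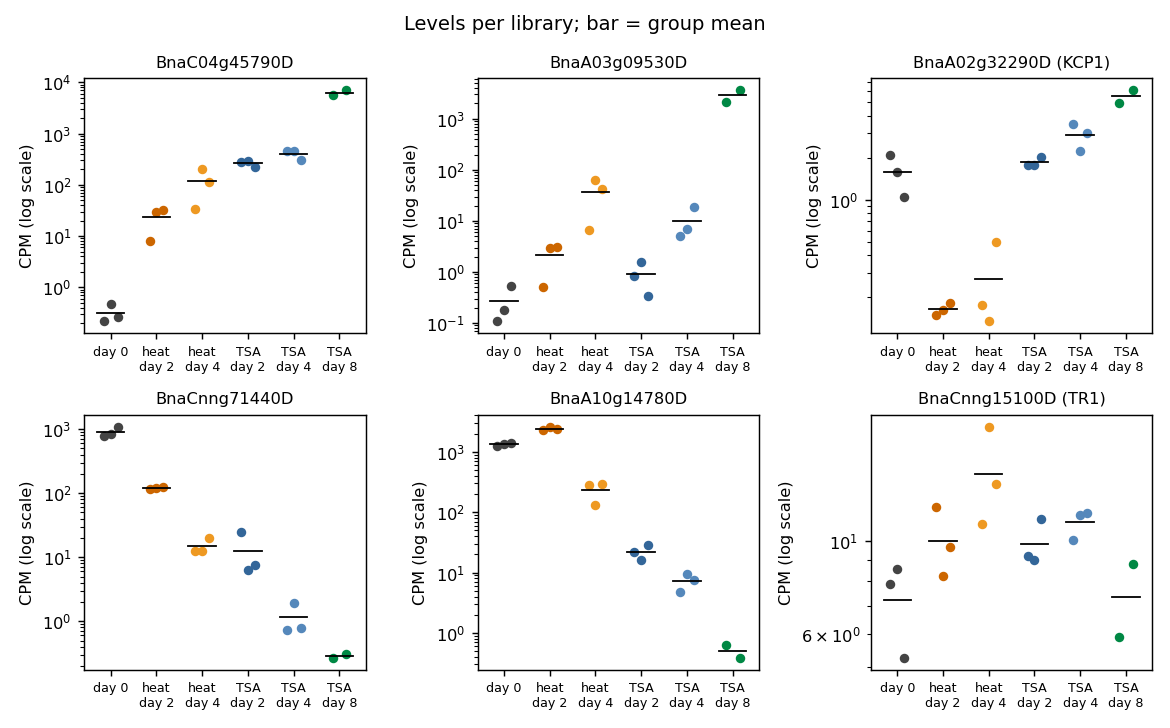
CPM of the 6 named genes in each of the 17 libraries (points, log scale, each panel with its own range) by group, with the group mean as a bar. BnaC04g45790D and BnaA03g09530D rise to 6329 and 2902 CPM at TSA day 8, BnaCnng71440D and BnaA10g14780D fall to 0.286 and 0.51 CPM, KCP1 rises to 5.54 CPM, and TR1 overlaps between day 0 and TSA day 8.

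Genes were said to be switched on where they were called, with a mean under 0.1 CPM on day 0 and of at least 1 CPM at day 8, and switched off in the reverse case. There were 3191 of the first kind (4.96% of genes tested) and 3009 of the second (4.68%). The limit of 0.1 CPM is below the level of 3 counts in day 8 replicates 1 and 2, 0.159 and 0.115 CPM, and in day 0 replicate 3, 0.787 CPM. Levels that low are therefore not resolved in these libraries. With limits of 0.5 and 5 CPM instead, 2705 were switched on and 1805 off. Of those switched on, 635 reached 10 CPM and 39 reached 100 CPM, and 2444 were at 1 CPM or more in both day 8 libraries. Of those switched off, 700 had been at 10 CPM or more and 58 at 100 CPM or more, and 1519 had no count in either day 8 library.

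Levels in the other cultures differed between these sets. The median level of the switched-on genes was 3.44 CPM at day 8, 0.796 and 1.15 CPM with TSA at days 2 and 4, and 0.103 and 0.396 CPM with heat alone at the same days. For 526 of them the mean was under 0.1 CPM in all 4 other culture groups, and for 384 it was at least 1 CPM in all 4. The median of the switched-off genes was 3.48 CPM on day 0, 0.846 and 0.53 CPM with TSA at days 2 and 4, and 2.48 and 1.66 CPM with heat alone. Of them, 49 were under 0.1 CPM in all 4 other culture groups, and 772 were at 1 CPM or more in all 4.

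The genes with the highest end levels are given by their summed share of counts. The 39 genes switched on to at least 100 CPM held 0.000204% of counts on day 0, 0.276% with TSA at day 2, 0.462% with TSA at day 4 and 1.49% at day 8 (means over libraries). With heat alone they held 0.00857% at day 2 and 0.0581% at day 4. The 58 genes switched off from at least 100 CPM held 2.12% on day 0, 0.0628% and 0.0156% with TSA at days 2 and 4, and 0.595% and 0.151% with heat alone. At day 8 they held 0.0003%. Such shares depend on the rest of a library, so median scaled levels are given as well. The 39 genes were at 1.04 and 14.3 CPM with heat alone and at 11.9 and 29.9 CPM with TSA at days 2 and 4. The 58 genes were at 33.3 and 12.7 CPM with heat alone and at 5.11 and 1.46 CPM with TSA.

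The most abundant transcripts were largely exchanged, and 25 genes stood in both lists of 100. The 100 most abundant genes of day 0 held 8.25% ± 1.01 of counts there (SD, n = 3) and 2.93% ± 0.233 at day 8 (SD, n = 2). Of these, 71 were called lower, 2 higher and 27 neither, and 28 were under 1 CPM at day 8. The 100 most abundant genes of day 8 held 9.33% ± 0.283 there (SD, n = 2) and 3.25% ± 0.401 on day 0 (SD, n = 3), and 70 of them were called higher, 2 lower and 28 neither. Since each list was picked from one side of the comparison, its direction was given by the choice. In the TSA cultures, which did not pick them, the day 8 list held 5.11% ± 0.365 of counts at day 2 and 6.14% ± 0.234 at day 4. In heat-only cultures it held 1.68% ± 0.23 and 0.911% ± 0.031 (SD, n = 3 each). These shares, too, depend on the rest of a library. The median scaled level of the day 8 list was 99.1 CPM on day 0. It was nearly the same with heat alone at day 2, and was 74 CPM with heat alone at day 4. With TSA the median was 208 CPM at day 2 and 224 CPM at day 4.

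For 3 measures of whole libraries an exact permutation test (two-sided) was run. With 3 against 2 libraries there are 10 arrangements and no p below 0.1. When the 100 top genes were chosen anew in every library, they took 8.28% ± 1.02 of counts on day 0 (SD, n = 3) and 9.57% ± 0.307 at day 8 (SD, n = 2), with an exact permutation p of 0.3. After thinning to 2500000 counts per library, 51398 ± 895 genes were detected on day 0 (SD, n = 3) and 50739 ± 392 at day 8 (SD, n = 2; exact permutation p = 0.4). The sign of this difference turned with fewer counts: after thinning to 1000000 counts, 313 more genes were detected at day 8. The A subgenome took 49.4% ± 0.133 of counts on A and C genes on day 0 (SD, n = 3) and 50.2% ± 0.344 at day 8 (SD, n = 2). Both day 8 libraries were above all day 0 libraries in this share, and the exact permutation p was 0.1, or 0.3 after Benjamini-Hochberg adjustment over the 3 measures.

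By chromosome, calls were spread evenly with a few exceptions. The IDs carry the chromosome, and 30.3% of tested A genes were called higher and 28.2% lower, against 27.7% and 30.1% of C genes. Over the 19 chromosomes the share called higher ran from 22.3% on C02 to 31.6% on A08, and the share called lower from 26.5% on C07 to 35.3% on C02. The share switched off ran from 3.21% on A06 to 7.07% on C04.

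C02 and C04 both held stretches of neighbouring genes that were lower together. Genes with a mean of at least 1 CPM over the 6 groups were put in the order of their ID numbers and cut into 1479 windows of 30 genes. For each window the median log2 ratio of day 8 to day 0, with 0.5 CPM added, was taken in lane 4 and, from other libraries, in lane 5. It was at or below -0.5 in 121 windows in lane 4 and in 66 in lane 5, with 49 in both. It was at or above 0.5 in 34 and 35 windows, with 15 in both. Windows and stretches were picked by these values, which are therefore given without a test.

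The lowest stretches were on C04. The first 9 windows of this chromosome, from BnaC04g00010D to BnaC04g06690D, had a median of -1.83 in lane 4 and -1.59 in lane 5. Of their 358 tested genes, 217 (60.6%) were called lower, 27 higher and 76 switched off. The tenth window was at 0.13 and -0.44. Windows 75 and 76 of the 81 on C04, from BnaC04g51570D to BnaC04g52990D, had medians of -1.90 and -1.80, with 50 of 77 genes called lower and 19 switched off. In both stretches the 2 day 8 libraries gave nearly the same value. Libraries of other groups differed there: against day 0, the stretch at the start of C04 was at -0.29 in heat-only day 2 replicate 1 and at 0.96 and 0.93 in replicates 2 and 3, and the part of such differences in the day 8 result was not tested.

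On C02 the low windows lay among the higher ID numbers. Windows 40 to 46 of 62, from BnaC02g28900D to BnaC02g35630D, had medians of -0.95 in lane 4 and -0.81 in lane 5. Windows 51 to 55, from BnaC02g38830D to BnaC02g42910D, were at -1.16 and -1.04, with 109 of 215 genes called lower. The first 4 windows of A07, up to BnaA07g02380D, were at -0.99 and -0.93, and 83 of 157 genes there were called lower. Heat-only libraries differed here as on C04: at day 2, windows 51 to 55 of C02 were at -0.43 in replicate 1 and at 0.41 and 0.35 in replicates 2 and 3, and the stretch on A07 was at -0.06, 0.45 and 0.37. The labels give the same line for all libraries and do not say which plants each came from.

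Other stretches were seen in one day 8 library more than in the other. Windows 72 to 79 of 84 on C09, from BnaC09g46300D to BnaC09g50430D, were at -0.31 in lane 4 and -0.85 in lane 5. Windows 62 and 63 on C06 were at -1.29 and -0.01, and windows 52 to 54 on A03 at 0.79 and 0.09. Over all windows the median was -0.11 in lane 4 (SD 0.33) and -0.02 in lane 5 (SD 0.30). The value of the weaker lane on C09, C06 and A03 lay within an SD of the median of its lane.

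**Figure D5:**
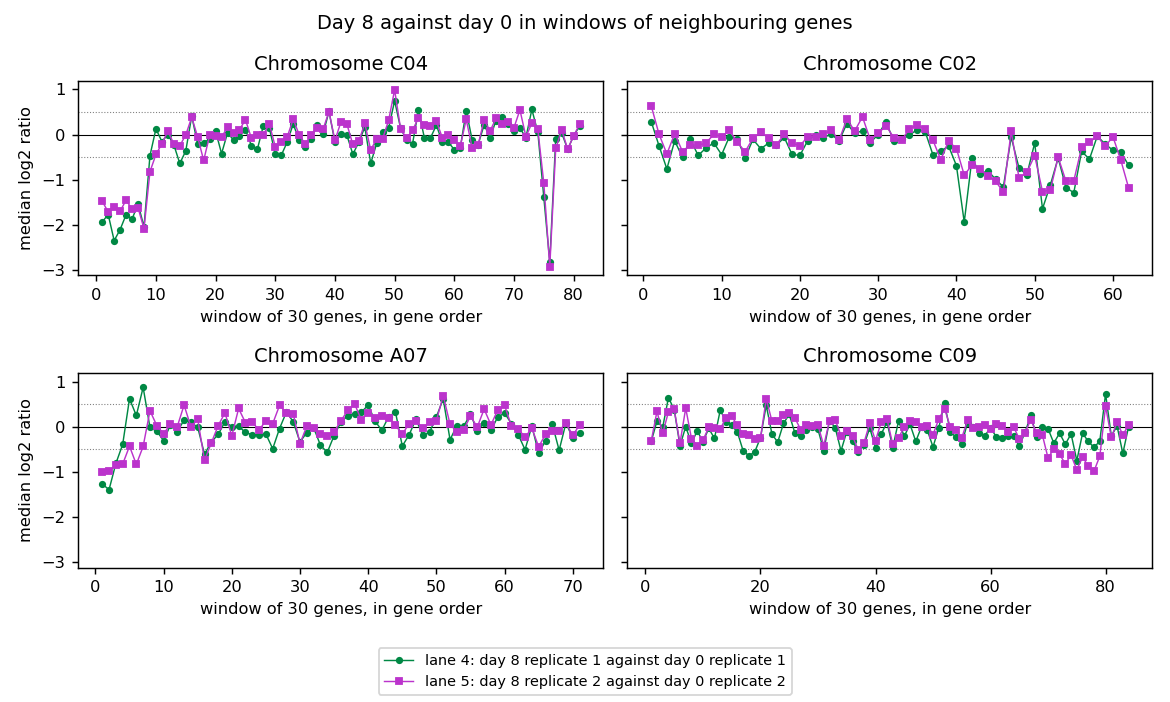
Median log2 ratio of TSA day 8 to day 0 in successive windows of 30 expressed genes along chromosomes C04, C02, A07 and C09, in lane 4 (circles) and lane 5 (squares). Dotted lines mark -0.5 and 0.5. Both lanes drop together at the start of C04, at windows 75 and 76 of C04, over the later windows of C02 and at the start of A07, whereas the drop near the end of C09 is deeper in lane 5.

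In all, there were 18 stretches, low or high, of at least 2 neighbouring windows past -0.5 or 0.5 in either lane. They held 2434 tested genes, of which 43.9% were called lower and 19.8% higher. Outside them 28.6% were called lower and 29.3% higher. The stretches were picked by ratios of libraries that also gave the calls, so the choice itself widens this difference. Without these genes, an alternative chosen after the values were seen, 35846 calls remained among the other 61896 genes, 50.6% of them higher. The day 8 minus day 0 difference in the share of A genes was 0.783 percentage points with them and 0.38 without them. The cause of the low stretches was not tested.

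Neighbouring genes also changed together on a finer scale. Where a gene was switched off, the next gene by ID was switched off as well in 13.1% of 1757 pairs, against 4.36% of all next genes. For genes switched on the share was 9.09% of 1904 pairs, against 4.74%. Outside the stretches above the shares were 12.6% and 9.22%. Neighbours can be tandem copies that share reads or overlapping genes, and their part in these shares was not tested.

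Day 8 against day 0 is not among the 10 comparisons in the authors' deposited table, but 2 of them add up to it. In the authors' deposited table the log2 fold change of TSA day 8 against TSA day 2 plus that of TSA day 2 against day 0 was 14.34 for BnaC04g45790D, 13.93 for BnaA03g09530D, -11.30 for BnaCnng71440D and -11.24 for BnaA10g14780D. For KCP1 the sum of the authors' deposited table was 1.80 and for TR1 0.05. Over 63481 genes these sums from the authors' deposited table differed from the fold changes computed here by a median of 0.148 in absolute value. Of 36612 called genes in both, 36610 had the same sign in the authors' deposited table.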

How the data were processed

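Total RNA of 17 samples was sequenced from TruSeq libraries, per the labels' protocols. The authors deposited raw read counts per gene, log2 CPM values, and a table of their own log2 fold changes with FDR (adjusted p-values) for 10 comparisons. The submitters' processing notes name limma. The sources used here do not name the aligner, counting rule, strand setting or genome build.

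Counts were tested with the edgeR quasi-likelihood test (edgeR 4.0.16, limma 3.58.1, R 4.3.3) after TMM scaling, filterByExpr and robust fitting. The fit used all 17 libraries with 1 coefficient per group, and Benjamini-Hochberg adjustment covered 64330 genes. The threshold was 0.05. The code was tested on simulated data. Alternatives changed the scaling, the filter, the libraries, the replicate block and the tool (DESeq2 1.42.0). Of 101040 IDs, 12381 had no count in any library.

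The members and all lists and rules were chosen with earlier results of these data known. Of the IDs, 3347 matched the reference gene table of the Da-Ae assembly, which gave another name for 2 and no product descriptions. The planned lists by product, the cell type markers and the naming rules that need products were therefore not used here.

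Per the labels, replicate number is sequencing lane in the named run, which pairs the samples by lane. Deviations from the group means correlated at 0.15 for number 1 and -0.09 for number 2, across 49663 genes. Day 8 replicate 2 correlated at 0.14 with day 0 replicate 3, which has another number. With 2 day 8 libraries their deviations are mirror images of each other, so these values cannot decide whether the samples are paired.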

Additional observations from a re-analysis of the deposited data

How the results depend on the processing

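The number of genes called stayed within 1.5 times of 37396 under all settings run, from 30807 (limma voom with a weight per group) to 38049 (DESeq2), and from 33230 to 36655 with each library left out in turn. With the 3 day 0 libraries summed to 1 it was 32554. The 30353 genes called and changed by at least 1 log2 unit became 24121 when 1 log2 unit was tested against directly. The number of genes tested differed too: calls were 30807 of 64330 genes with voom and 37951 of 88659 without a filter. A majority of genes was thus called in the main setting but not in these. Fitted on the 5 libraries only, 33157 of 53429 genes were called. The adjusted p was then 1.53e-06 (edgeR quasi-likelihood test) for each gene named by its fold change. With voom and a weight per group the adjusted p of BnaCnng71440D was 0.000299 (limma). With a replicate block 37159 genes were called over 17 libraries and 34895 over the 8 of the named run, and the block changed no call of a named gene.

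The share of calls that were higher, 49.8% in the report, moved with the scaling, the filter and the libraries used. It was 54.5% with RLE size factors, 46.7% when only library totals were used, 48.1% under upper-quartile scaling, 55.0% without a filter, 54.5% with the 8 libraries of the named run, 53.8% with these and the replicate block, and 54.1% with DESeq2. Among settings chosen after seeing the data it was 51.5% with voom, 46.8% with day 0 summed, 50.4% with limma on the authors' log2 CPM and 50.6% without the low or high stretches. With each library left out it ran from 48.4% to 51.5%. Neither direction can therefore be called the more frequent.

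With limits of 0.5 and 5 CPM, 2705 genes were switched on instead of 3191, and 1805 off instead of 3009. The difference in genes detected, -659, became 313 after thinning to 1000000 counts and 1102 with at least 10 counts per gene. It was -410, -392 and -1176 without day 0 replicates 1, 2 and 3, and -936 and -382 without day 8 replicates 1 and 2. The TR1 difference, -0.03, was 0.11 with RLE, without a filter and with DESeq2, 0.10 with the named run, 0.073 with its replicate block and 0.15 with the authors' log2 CPM, and ran from -0.37 to 0.22 with each library left out. The causes were not tested. The day 8 group has 2 libraries, and day 0 replicate 3 is shallow, which limits low genes. Alternatives for lists by product were not run.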

Other observations

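The stretch at the start of C04 that was low at day 8, BnaC04g00010D to BnaC04g06690D, did not have one level in the other cultures. Its median log2 difference from the day 0 mean was -1.64 and -1.49 in the day 8 libraries, -0.56, -0.52 and -0.48 with TSA at day 2, and -0.67, -0.74 and -0.32 with TSA at day 4. In the heat-only libraries it was -0.29, 0.96 and 0.93 at day 2 and -0.40, 0.91 and 0.94 at day 4. Replicate 1 was thus below 0 and replicates 2 and 3 were above 0 on both days. The stretch was chosen after its values were seen, and the cause was not tested.

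For windows 75 and 76 of C04 the median was -1.75 in both day 8 libraries, -0.86, -0.76 and -0.80 with TSA at day 2, and -0.09, 1.06 and 1.01 with heat alone at day 2.

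KCP1, described above for day 0 and day 8, stood at 0.165 ± 0.0167 CPM in heat-only cultures at day 2 and 0.269 ± 0.198 CPM at day 4 (SD, n = 3 each), values that rest on 1 to 6 counts per library. With TSA it stood at 1.86 ± 0.156 and 2.91 ± 0.628 CPM on those days (SD, n = 3 each).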
